A study of Mus musculus with 88 samples.

Results

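The transcripts of 10 genes of egg calcium signalling were followed in single fully grown germinal vesicle (GV) oocytes of young and aged mice. The genes are *Itpr1*, *Trpm7*, *Cacna1h*, *Stim1*, *Orai1*, *Atp2a2*, *Atp2b1*, *Camk2g*, *Ppp3ca* and *Ppp3cb*, and each was measured as 1 of the 38540 features of an oocyte transcriptome. *Ppp3ca* was selected on its age difference in these same oocytes, so its level by age is a description here, and the other genes were chosen by their roles, with earlier results of these data known. A gene took the feature carrying its name in the study's gene list (*Itpr1*, *Trpm7* and *Stim1*) or else the feature on its strand that matched its GENCODE M21 span best (the remaining 7 genes). The overlap of feature and gene, as a share of their joint span, was at least 0.989 for 9 genes and 0.818 for *Atp2a2*.

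The oocytes came from virgin C57BL/6Babr females that ovulated naturally, 3 young mice of 12 weeks and 7 aged mice of 44 to 54 weeks, and were stripped of granulosa cells. Polyadenylated RNA of each oocyte was amplified as Smart-seq2 cDNA with no molecular identifiers, and the counts are reads. The main values rest on 42 young and 45 aged oocytes, split by the study's predicted chromatin configuration into 30 young and 37 aged oocytes with a non-surrounded nucleolus (NSN) and 12 young and 8 aged oocytes with the more mature surrounded nucleolus (SN). That prediction was made from transcripts of the same oocytes, so every SN to NSN difference below is a description. The mouse behind each oocyte is not labelled, each age group therefore counts as 1 sample with no replicate check, and no test was run.

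A fertilised egg is activated by repeated calcium waves. Sperm phospholipase C zeta makes inositol trisphosphate, the inositol trisphosphate receptor opens the calcium store of the endoplasmic reticulum, channels of the plasma membrane let calcium in to refill it, and pumps return calcium to the store or out of the cell. Calcium bound to calmodulin then switches on calcium/calmodulin-dependent kinase II, whose gamma form drives exit from meiosis in mouse eggs, and the phosphatase calcineurin, a catalytic A subunit paired with a regulatory B subunit. A GV oocyte is arrested before these events and holds the transcripts in store.

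Levels are given in CPM, the summed counts of a group per 1000000 of its total count, with 95% exact Poisson intervals that reflect counting error alone. Total counts ran from 1579196 to 8231046 in young oocytes and from 976456 to 5448310 in aged oocytes. CPM is a share of the counted RNA, so less RNA of a gene and more RNA of other genes cannot be told apart. Of 12 oocyte markers 10 had a feature, and all 10 had counts (*Gdf9* at 4510 CPM in young oocytes and 4221 CPM in aged ones, *Sohlh1* under 0.1 CPM in both). The summed level of 10 granulosa and cumulus markers with a feature ran from 25.3 to 85.9 CPM in young oocytes and from 20.9 to 111 CPM in aged ones, most of it *Nr5a2* at 26.2 and 25.8 CPM, and 5 of the 10 reached 1 CPM in each age. The haemoglobin genes *Hba-a1* and *Hbb-bs* were at 0.

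Of the 10 genes, 9 had at least 1 count in every one of the 87 oocytes, and *Stim1*, with 446 counts in all, had one in 70 oocytes. Per kilobase of annotated exon, *Camk2g* stood highest at 68.2 CPM per kb, followed by *Atp2a2* at 44.1, *Orai1* at 25.01, *Atp2b1* at 14.4, *Trpm7* at 8.27, *Itpr1* at 5.80, *Cacna1h* at 4.62, *Ppp3cb* at 1.14, *Ppp3ca* at 0.907 and *Stim1* at 0.174 CPM per kb. The order was not equally clear at each step. *Camk2g* exceeded *Atp2a2* in 80 of 87 oocytes, *Atp2a2* exceeded *Orai1* in 86 and *Cacna1h* exceeded *Ppp3cb* in all 87, whereas *Trpm7* exceeded *Itpr1* in 64, *Itpr1* exceeded *Cacna1h* in 73 and *Ppp3cb* exceeded *Ppp3ca* in 58, and the mean ± SD ranges of these last 3 pairs overlapped.

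**Figure D1:**
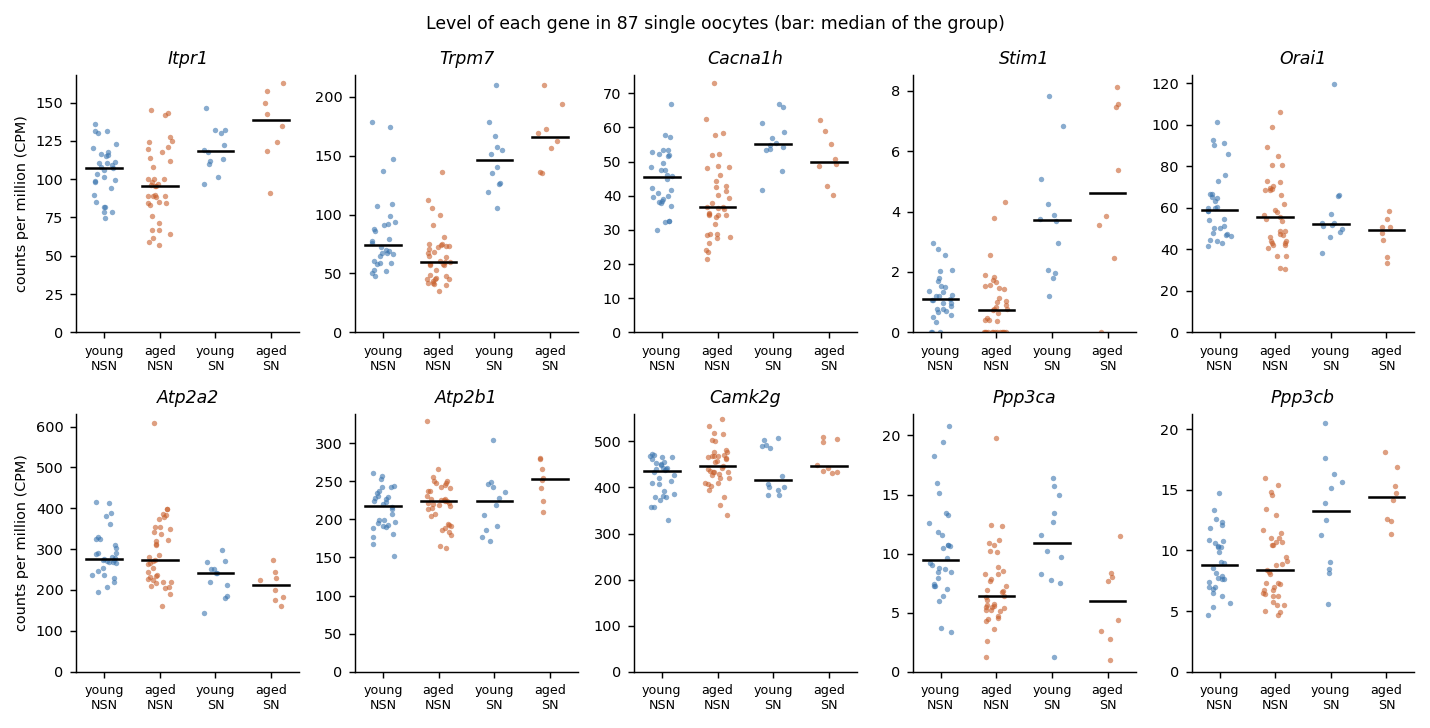
Level of each gene in each of the 87 oocytes, in CPM, by age and predicted configuration, with a bar at the median of the group. *Trpm7* and *Stim1* lie higher in SN than in NSN oocytes of both ages, *Atp2a2* lies lower in SN oocytes, and *Ppp3ca* lies lower in aged oocytes of both configurations.

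Between ages, 1 of the 10 genes passed a 1.3-fold difference, set as a limit of size and not as a test. That gene was *Ppp3ca*, the gene already selected for its age difference, and it was lower in aged oocytes. Of 19631 features with a mean of at least 1 count per oocyte and at least 3 counts in each age group, 12.5% passed the same limit, 9.2% lower and 3.32% higher in aged oocytes. The share depended on the level of a feature, with 29.2% past the limit at mean counts of 1 to 10, 4.50% at 10 to 100 and 0.571% at 100 to 1000. The median log2 ratio, aged over young, was -0.10 over the 10 genes and -0.02 over all features tested. A ratio below 0 was found for 6 genes, and the median over all features was below 0 as well. Of all features, 59.9% had a ratio below that of *Atp2a2* (0.02). The 95% interval of counting error lay below 0 for 5 of the 6 genes and above 0 for *Atp2b1* and *Camk2g*. No share of all features was taken for the intervals.

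*Itpr1* encodes the inositol trisphosphate receptor that releases the stored calcium at fertilisation, and its feature (chr6:108213095-108551362, plus strand, GRCm38) spanned the whole gene. Its pooled level of 109 CPM in young oocytes stood against 103 CPM in the aged ones. Single young oocytes ran from 74.5 to 146 CPM around a median of 111 CPM, and single aged oocytes from 57.4 to 163 CPM around a median of 98.3 CPM. The aged oocytes thus reached both lower and higher than the young, with 7 of 45 below every young oocyte and 3 above. The log2 ratio of levels, aged over young, was -0.09 (95% interval -0.12 to -0.05), -0.13 within NSN and 0.16 within SN oocytes. SN oocytes held more *Itpr1* than NSN oocytes, by a log2 ratio of 0.15 (0.10 to 0.20) in young and 0.44 (0.38 to 0.51) in aged oocytes. The oocyte names form 6 runs of consecutive numbers, 3 of each age, whose meaning the labels do not give. In each of the 6 runs the SN oocytes had the higher *Itpr1* level, and in NSN oocytes alone the young runs (102 to 107 CPM) lay above the aged runs (91.9 to 101 CPM).

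*Trpm7*, a divalent cation channel fused to a kinase and one of the routes of calcium entry into the mouse egg, differed more with configuration than any other of the genes except *Stim1*. The feature lay at chr2:126791561-126876365 on the minus strand, with no feature opposite to it. Young NSN oocytes ran from 48.04 to 178 CPM with a median of 74.0 CPM, and young SN oocytes from 106 to 209.8 CPM with a median of 146 CPM. Aged NSN oocytes ran from 35.2 to 136 CPM with a median of 59.8 CPM, and aged SN oocytes from 135 to 210.1 CPM with a median of 166 CPM. In aged oocytes the configurations all but separated, since 7 of 8 SN oocytes exceeded every NSN oocyte and 36 of 37 NSN oocytes lay below every SN oocyte. In young oocytes 2 of 12 SN oocytes exceeded every NSN oocyte, and all 12 were above the NSN median. The log2 ratio of pooled levels, SN over NSN, was 0.67 (0.62 to 0.72) in young and 1.28 (1.22 to 1.34) in aged oocytes, and SN was the higher in each of the 6 runs.

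The age ratio of *Trpm7* had opposite signs in NSN and SN oocytes, and the difference between them was not tested. Pooled over configurations its level was 102 CPM in young oocytes and 84.0 CPM in aged ones (log2 ratio -0.27, -0.31 to -0.24). Within NSN oocytes the log2 ratio was -0.37 (-0.42 to -0.32), just inside the limit of 1.3-fold, and 11 of 37 aged NSN oocytes lay below every young NSN oocyte. The medians over all oocytes of an age gave -0.44, past the limit. With single NSN oocytes left out, the pooled NSN ratio ran from -0.42 to -0.29, and it passed the limit for 20 of the 67. Over all oocytes no single omission took the pooled ratio past the limit. Within SN oocytes the log2 ratio was 0.24 (0.17 to 0.30), with 6 of 8 aged oocytes above the young SN median. In NSN oocytes alone the young runs (83.3 to 89.3 CPM) and the aged runs (55.3 to 81.2 CPM) did not overlap, as for *Itpr1* and *Ppp3ca*, 3 of the 10 genes against 13.5% of all features.

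*Cacna1h* encodes the T-type calcium channel that fills the stores during oocyte maturation. Its feature (chr17:25374285-25433794, minus strand) carries the name of the neighbouring *Tpsg1* in the study's list but covers the span of *Cacna1h* with an overlap above 0.99. Levels ran from 30.0 to 66.9 CPM (median 48.01 CPM) in young and from 21.6 to 72.9 CPM (median 40.2 CPM) in aged oocytes. The ages overlapped broadly, with 9 of 45 aged oocytes below every young oocyte and 31 below the young median. Aged over young, the log2 ratio came to -0.23 (-0.28 to -0.17) and had the same sign in NSN (-0.20) and SN oocytes (-0.16). SN oocytes were the higher in both ages (log2 ratio 0.31 in young and 0.35 in aged) and in all 6 runs.

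*Stim1* and *Orai1* form the store-operated entry route, with STIM1 sensing the empty store and ORAI1 the pore. *Stim1* (chr7:102267276-102437315, plus strand) was near the limit of detection in NSN oocytes. Young NSN oocytes ran from 0 to 2.96 CPM (median 1.09 CPM), and aged NSN oocytes from 0 to 4.31 CPM (median 0.733 CPM). Young SN oocytes ran from 1.19 to 7.82 CPM (median 3.72 CPM), and aged SN oocytes from 0 to 8.13 CPM (median 4.61 CPM). SN levels were thus the higher, with 7 of 12 young SN oocytes above every young NSN oocyte and 4 of 8 aged SN oocytes above every aged NSN oocyte. The log2 ratio, SN over NSN, was 1.75 (1.39 to 2.13) in young and 2.36 (1.94 to 2.79) in aged oocytes, the largest of the 10 genes in both ages, and 98.8% and 98.3% of all features tested had a lower ratio.

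The share of oocytes with a *Stim1* count moved with depth. It was 92.9% of young and 68.9% of aged oocytes, and after every oocyte was thinned at random to 900000 counts it was 64.3% and 53.3%. The pooled levels, 1.91 CPM for young oocytes and 1.69 CPM for aged ones, gave a log2 ratio of -0.18 with an interval of -0.46 to 0.09, which includes 0. The medians over oocytes, 1.36 and 0.846 CPM, gave -0.68, past the limit, and the value depended on the runs included, from -0.40 without the aged run 41 to 48 to 0.13 without the young run 17 to 24. Within SN oocytes the ratio was 0.39 (0.01 to 0.76), just past the limit of 1.3-fold, and the loss of any one of 9 of the 20 SN oocytes took it under the limit, the lowest value being 0.28.

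The sequences around the annotated starts of *Trpm7* and *Stim1* are shown because these genes differed most between configurations. RefSeq (GRCm38.p6) gave a window from 250 bases before to 50 after the start for 5 of the 10 genes. Both strands were searched for 4 short motifs. The TATA box letters TATAAA occur in 13.6% of 32851 such windows. The E-box CACGTG, which reads the same on both strands, occurs in 7.15%. The GC box GGGCGG occurs in 35.7%, and the CCAAT box in 37.4%. The *Trpm7* window (chr2:126876212-126876511, minus strand) held CACGTG at 2 places and none of the others, and the *Stim1* window (chr7:102267569-102267868, plus strand) held GGGCGG at 8 places, either strand counted, and none of the others. The assembled *Stim1* feature began 543 bases before the annotated start. Capitals mark the letters found, which are matches in sequence and not sites of binding.
Trpm7: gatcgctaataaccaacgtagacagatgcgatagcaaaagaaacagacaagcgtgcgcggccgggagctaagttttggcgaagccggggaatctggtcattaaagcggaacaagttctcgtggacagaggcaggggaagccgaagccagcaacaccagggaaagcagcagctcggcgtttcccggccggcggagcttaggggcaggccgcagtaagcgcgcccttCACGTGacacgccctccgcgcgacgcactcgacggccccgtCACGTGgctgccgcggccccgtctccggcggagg
Stim1: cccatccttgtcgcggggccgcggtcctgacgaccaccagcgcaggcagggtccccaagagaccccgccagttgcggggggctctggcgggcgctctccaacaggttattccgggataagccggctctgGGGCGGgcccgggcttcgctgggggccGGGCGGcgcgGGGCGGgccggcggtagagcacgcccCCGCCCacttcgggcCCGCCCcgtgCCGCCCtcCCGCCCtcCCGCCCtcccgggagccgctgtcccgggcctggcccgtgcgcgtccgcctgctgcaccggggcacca

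*Orai1* (chr5:123014941-123030450, plus strand) was expressed at 59.3 CPM in young oocytes and 55.2 CPM in aged ones (log2 ratio -0.10, -0.15 to -0.06). Young oocytes ran from 38.2 to 119.7 CPM (median 55.6 CPM) and aged oocytes from 30.7 to 106 CPM (median 53.5 CPM), and 39 of 45 aged oocytes lay within the young range. SN oocytes were the lower in pooled level in both ages, by a log2 ratio of -0.13 in young and -0.31 in aged oocytes, but in only 4 of the 6 runs. Runs differed more than ages. The young run 1 to 7 stood at 70.1 CPM against 54.0 CPM in both other young runs, and the aged runs at 66.7, 60.2 and 43.7 CPM. The high levels of 2 of these runs lay with suffix A, at 91.9 CPM against 54.2 CPM without suffix in the young run 1 to 7 and 82.8 CPM against 46.8 CPM in the aged run 9 to 16. The feature shares 140 bases with the opposite *Kdm2b* feature at 391 CPM, and its deviations from the group medians followed those of *Kdm2b* over the 87 oocytes with a Spearman rho of 0.50. The library kit keeps no strand, so reads of the shared stretch cannot be assigned.

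Calcium is cleared by pumps. *Atp2a2* encodes the SERCA pump that refills the endoplasmic reticulum, and *Atp2b1* a plasma membrane pump that expels calcium. *Atp2a2* stood at 267 CPM in young oocytes and 269.9 CPM in aged ones, a log2 ratio of 0.02 (-0.0046 to 0.04). Young oocytes ran from 143 to 415 CPM (median 269.7 CPM) and aged oocytes from 159.8 to 608 CPM (median 263 CPM), and 44 of 45 aged oocytes lay within the young range. It was the 1 gene lower in SN than in NSN oocytes past 1.3-fold, with a log2 ratio of -0.44 (-0.47 to -0.40) in young and -0.48 (-0.53 to -0.43) in aged oocytes. In 5 of 6 runs SN was the lower, 11 of 12 young SN oocytes lay below the young NSN median, and 7 of 8 aged SN oocytes lay below the aged NSN median. The young value leaned on the most deeply sequenced oocyte, 24A, at 143 CPM, and was -0.31 without it. It was also inside the limit after thinning every oocyte to 900000 counts (-0.32), with means (-0.33) and with medians over oocytes (-0.20), and the aged value was inside it with medians (-0.37). Runs of the same age spread from 235 to 321 CPM in young and from 209 to 322 CPM in aged oocytes.

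The *Atp2a2* feature (chr5:122442702-122502225, minus strand) extends beyond the annotated end of the gene at 122453513 and overlaps the opposite *Anapc7* feature over 7682 bases, and the study's list gives it the name *Anapc7*. *Anapc7* stood at 160 CPM, differed little between young SN (166 CPM) and NSN oocytes (164 CPM), and did not follow *Atp2a2* over the oocytes (Spearman rho -0.08). As for *Orai1*, the kit keeps no strand, so reads of the shared stretch cannot be assigned. The *Atp2a2* level of 44.1 CPM per kb divides the counts of the whole feature by the 6.081 kb of annotated exon alone. For *Atp2b1* (chr10:98914364-99026143, plus strand) levels ran from 151 to 304 CPM (median 219.8 CPM) in young and from 163 to 329.8 CPM (median 225 CPM) in aged oocytes, a log2 ratio of 0.07 (0.04 to 0.09). The ratio was 0.04 within NSN and 0.20 within SN oocytes, where 7 of 8 aged oocytes exceeded the young median. SN and NSN oocytes had nearly the same level in young (log2 ratio -0.02) and differed by 0.14 in aged oocytes.

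*Camk2g*, the kinase that carries the calcium signal to the cell cycle, was the most abundant and the least variable of the 10 genes. Its feature lay at chr14:20734848-20794118 on the minus strand. It ran from 330.1 to 508 CPM (median 429.7 CPM) in young and from 341 to 549 CPM (median 446 CPM) in aged oocytes. The pooled levels of 427 and 448 CPM gave a log2 ratio of 0.07 (0.05 to 0.09), and 33 of 45 aged oocytes stood above the young median. In SN oocytes all 8 aged oocytes exceeded the young SN median, at a log2 ratio of 0.06. Configuration made little difference, with log2 ratios of 0.07 in young and 0.05 in aged oocytes and SN above NSN in 3 of 6 runs. The young run 1 to 7 (396 CPM) lay under the other young runs (433 and 454 CPM), which overlapped the aged runs (441 to 464 CPM).

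*Ppp3ca* and *Ppp3cb* encode 2 catalytic A subunits of calcineurin, and both were low. *Ppp3ca* (chr3:136670113-136940049, plus strand) had a mean of 25.6 counts per oocyte. Young oocytes ran from 1.27 to 20.8 CPM with a median of 9.99 CPM, and aged oocytes from 0.993 to 19.8 CPM with a median of 6.39 CPM. The single oocytes overlapped, with 43 of 45 aged oocytes inside the young range, but 36 of 45 lay below the young median. The pooled levels were 10.6 CPM (10.1 to 11.2 CPM) and 7.22 CPM (6.73 to 7.73 CPM). Aged over young, this is a log2 ratio of -0.56 (-0.68 to -0.43), and the ratio was -0.52 within NSN and -0.71 within SN oocytes. It stayed past 1.3-fold with any single oocyte left out, between -0.59 and -0.52. Among features of 10 to 100 mean counts, 3.59% were at least 1.3-fold lower in aged oocytes. *Ppp3ca* was selected on this same difference, so neither the range with oocytes left out nor this share tests it. Within NSN oocytes 1 of the 10 genes passed the limit between ages (*Ppp3ca*), beside 15.1% of all features. Within SN oocytes 2 of the 10 did (*Ppp3ca* lower, *Stim1* higher), beside 26.8% of all features.

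*Ppp3ca* was also the 1 gene whose runs did not overlap between the ages, where 13.2% of all features did not. This too is a description, since the gene was selected on its age difference. Its young runs stood at 9.10, 11.4 and 11.3 CPM and its aged runs at 6.22, 8.02 and 7.26 CPM. The oocyte names also carry a suffix A or none, of unknown meaning, and the difference was not even across it. In oocytes with no suffix the young runs ran from 11.0 to 12.6 CPM and the aged runs from 6.01 to 8.36 CPM, a log2 ratio of -0.72. In oocytes with suffix A the young runs ran from 5.88 to 11.7 CPM and the aged runs from 5.54 to 8.63 CPM, and the log2 ratio of -0.37 fell short of the limit. SN and NSN oocytes did not differ clearly in pooled *Ppp3ca* (log2 ratio 0.01, -0.16 to 0.18, in young and -0.17, -0.46 to 0.10, in aged). By run, SN was the lower in 5 of 6, among them the run 1 to 7 with 1 SN oocyte.

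**Figure D2:**
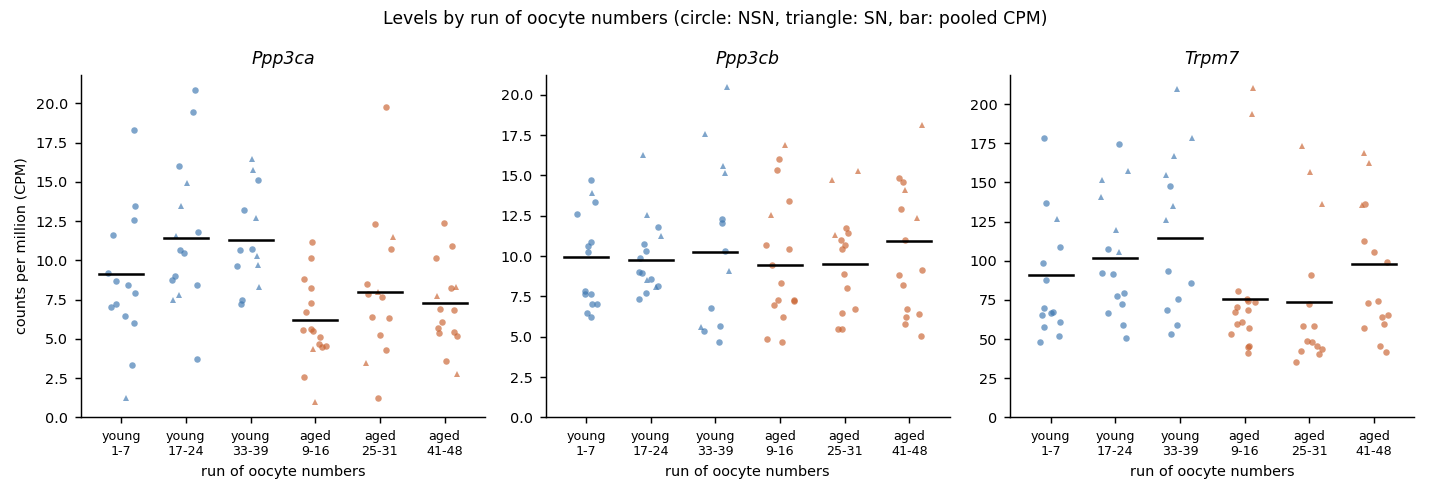
Levels of *Ppp3ca*, *Ppp3cb* and *Trpm7* in single oocytes, in CPM, by run of oocyte numbers and age, with circles for NSN, triangles for SN and a bar at the pooled level of the run. The 3 aged runs of *Ppp3ca* (6.22 to 8.02 CPM) lie under the 3 young runs (9.10 to 11.4 CPM), those of *Ppp3cb* overlap, and the triangles of *Trpm7* lie above most circles in each run.

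*Ppp3cb* (chr14:20499868-20546582, minus strand) did not share the age pattern of *Ppp3ca*. It ran from 4.66 to 20.5 CPM (median 9.47 CPM) in young and from 4.69 to 18.1 CPM (median 9.42 CPM) in aged oocytes. The pooled levels of 9.96 and 10.1 CPM gave a log2 ratio of 0.02 (-0.10 to 0.13). By configuration the ratio was -0.02 within NSN and 0.32 (0.10 to 0.54) within SN oocytes. Without the young oocyte 33 of no suffix the SN value was 0.41, past the limit. The level of *Ppp3cb* was higher in SN than in NSN oocytes in all 6 runs. The log2 ratio, SN over NSN, was 0.35 (0.18 to 0.52) in young and 0.69 (0.50 to 0.88) in aged oocytes. All 8 aged SN oocytes stood above the aged NSN median. Within one oocyte, the number of *Ppp3ca* counts exceeded that of *Ppp3cb* in 24 of 42 young and 12 of 45 aged oocytes, and the median ratio of the counts was 1.098 in young and 0.667 in aged oocytes. In aged SN oocytes *Ppp3ca* exceeded *Ppp3cb* in 0 of 8, with a median ratio of 0.403.

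The third catalytic gene, *Ppp3cc*, was the most abundant of the family. Per kilobase of exon it stood at 4.59 CPM in young oocytes and 4.08 CPM in aged ones. It made up 67.6% and 68.6% of the summed per-kilobase level of the 3 catalytic genes. The part of *Ppp3ca* was 15.7% in young and 12.2% in aged oocytes, that of *Ppp3cb* 16.7% and 19.3%, and the sum of the 3 was 6.78 and 5.95 CPM per kb. The regulatory subunit gene *Ppp3r1* stood at 74.0 CPM per kb over all oocytes, and at 229 CPM in young oocytes against 251 CPM in aged ones (log2 ratio 0.13, 0.11 to 0.15). The per-kilobase scale rests on annotated exons and not on the isoforms present.

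More of the 10 genes passed the limit between configurations than between ages, and so did more of the features as a whole. In young oocytes 3 of 10 genes passed 1.3-fold between SN and NSN (*Stim1* and *Trpm7* higher, *Atp2a2* lower), beside 24.3% of all features. In aged oocytes 5 of 10 passed (*Stim1*, *Trpm7*, *Ppp3cb* and *Itpr1* higher, *Atp2a2* lower), beside 39.7% of all features. *Ppp3cb* in young oocytes (0.35) passed the limit with any 1 of 6 oocytes left out and with medians (0.59). *Cacna1h* in aged oocytes (0.35) passed it without oocyte 47 or 27, both of no suffix, and with medians (0.45). In young oocytes the median log2 ratio of the 10 genes was 0.11 and in aged ones 0.24, against 0.02 over all features in both. SN lay above NSN in all 6 runs for 5 of 10 genes (*Itpr1*, *Trpm7*, *Cacna1h*, *Stim1* and *Ppp3cb*), a pattern that 10.4% of all features had. One young run holds a single SN oocyte. The aged SN oocytes of a run all had the same suffix, and NSN oocytes of the same run and suffix were present beside them. In these 3 sets *Trpm7* ran from 194 to 210.1 CPM in SN and from 59.8 to 80.6 CPM in NSN oocytes of the run 9 to 16. It ran from 136 to 173 CPM and from 40.6 to 72.2 CPM in the run 25 to 31. In the run 41 to 48 it ran from 135 to 169 CPM and from 57.3 to 113 CPM. The SN and NSN ranges of *Cacna1h* overlapped in all 3 sets. Those of *Itpr1* were apart only in the run 9 to 16. Those of *Ppp3cb* were apart only in the run 25 to 31, and those of *Stim1* only in the run 41 to 48. In the run 25 to 31 *Itpr1* ran from 135 to 163 CPM in SN and from 84.8 to 143 CPM in NSN oocytes.

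**Figure D3:**
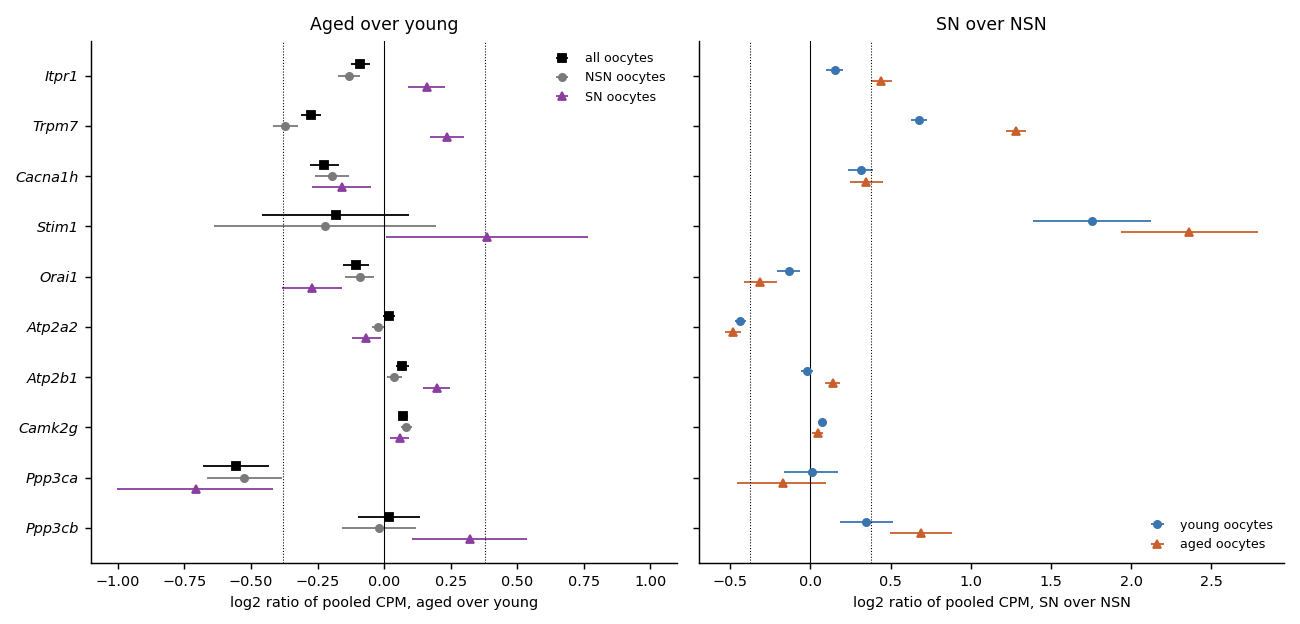
Log2 ratios of pooled levels with 95% intervals of counting error, aged over young on the left (all, NSN and SN oocytes) and SN over NSN on the right (young and aged oocytes), with dotted lines at 1.3-fold. *Ppp3ca* lies past the line between ages in all 3 sets. *Trpm7*, *Itpr1*, *Stim1* and *Ppp3cb* lie on opposite sides of 0 in NSN and SN oocytes. The NSN intervals of *Stim1* and *Ppp3cb* include 0. *Stim1* (1.75 and 2.36) and *Trpm7* (0.67 and 1.28) lie farthest to the right between configurations.

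The spread between single oocytes was taken as the coefficient of variation (CV) of CPM with the part due to counting removed, for the 9 genes with at least 10 counts on average. *Camk2g* varied least, with a CV of 9.74% in young and 9.18% in aged oocytes, and *Atp2b1* followed at 13.5% and 13.4%. *Itpr1* had a CV of 14.8% in young and 25.9% in aged oocytes, *Cacna1h* 18.1% and 26.5%, and *Atp2a2* 21.7% and 30.1%. The CV of *Trpm7* over both configurations was 41.7% and 54.5%, and within NSN oocytes its squared CV was 0.159 in young and 0.110 in aged oocytes. Each of the 9 genes except *Trpm7* had the larger squared CV in aged oocytes within NSN (*Itpr1* 0.0231 in young and 0.0557 in aged). Within SN oocytes only *Itpr1*, *Cacna1h* and *Ppp3ca* did. No share of all features was taken within a configuration. Over both configurations, 6 of 9 genes were more variable in aged oocytes, beside 74% of 12377 features. The median log2 ratio of squared CVs was then 0.42 over the 9 genes and 0.45 over all features.

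**Figure D4:**
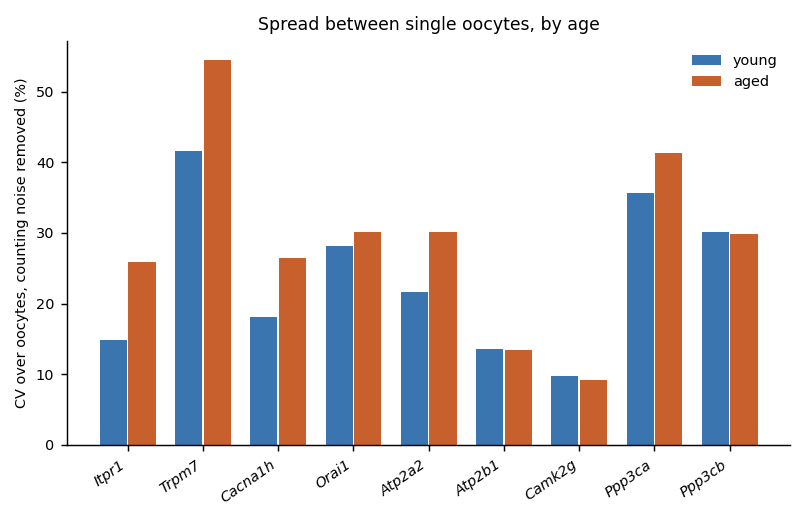
Coefficient of variation over oocytes with counting noise removed, in percent, for the 9 genes with a mean of at least 10 counts, in young and aged oocytes. The aged bar is the taller for 6 genes, with the largest ratio for *Itpr1* (25.9% against 14.8%), and *Camk2g* has the shortest bars (9.74% and 9.18%).

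To see which genes varied together, the deviations of log2(CPM + 1) from the median of each age and configuration group were correlated over the 87 oocytes, for the 7 genes with a mean of at least 100 counts. All values come from the same libraries and share their depth, and they are given as a description. *Itpr1* went with *Trpm7* (Spearman rho 0.46) and *Cacna1h* (0.43), and *Orai1* with *Atp2a2* (0.41), whereas *Trpm7* and *Orai1* went in opposite directions (-0.42). *Trpm7* and *Cacna1h* were not related (0.01). Among 5365 features the most alike to *Trpm7* were *Hspa5*, the chaperone BiP of the endoplasmic reticulum (0.71), *Lonrf3* (0.70) and the feature TCONS_00057694 (0.70), which the study's list calls *Catsper2* but whose span matches *Pdia3*, a further chaperone of the endoplasmic reticulum. *Itpr1* was most like *Ubr4* (0.77), *Lama2* (0.71) and *Myh9* (0.70), *Cacna1h* most like *Gtf3c1* (0.63) and *Ptpn11* (0.60), and *Orai1* most like *Slc30a3* (0.78), *Atxn2l* (0.76) and *Sap130* (0.74). *Atp2a2* was most like *Camsap2* (0.82), *Plekha8* (0.80) and *Esyt2* (0.75), and over the oocytes its deviation went down with the total count of the library (-0.36). *Atp2b1* was most like the unnamed feature TCONS_00067827 (0.66), *Gatad2b* (0.65) and *Atrx* (0.63), and *Camk2g* most like *Uhrf1* (0.58), *D7Ertd443e* (0.58) and *Actn4* (0.55).

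A list of 190 further genes of the pathway, set by textbook role, gave the setting for these values. A feature was found for 153 of them, and 126 had enough counts. Between ages 8 of the 126 passed 1.3-fold, 6 lower and 2 higher in aged oocytes, or 6.35% in either direction beside 12.5% of all features. The median log2 ratio of the 126 was -0.02, as over all features. All 8 had a low mean count. The lower ones were *Camk4* (-0.64), *Camk1g* (-0.59), *Nfatc3* (-0.48), *Inpp1* (-0.41), *Camk1* (-0.41) and *Rps6ka2* (-0.40), and the higher ones were *Prkcb* (0.54) and *Camkv* (0.41), named here after their values were seen. *Camk4* had the most counts of them, a mean of 12.4 per oocyte. Not all of their intervals excluded 0, and that of *Camk1* ran from -0.86 to 0.03, at a mean of 2.09 counts. Over NSN and SN oocytes pooled, no pump, entry channel, mitochondrial carrier or store chaperone on the list passed the limit. Within NSN oocytes the entry channels *Trpv3* (-0.41) and *Cacna1b* (-0.47, with a mean of 1.89 counts and an interval that includes 0) were lower past it in aged oocytes, and within SN oocytes *Cacna1i* (0.50) was higher, these also named after their values were seen.

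Among list genes of at least 10 CPM, the lowest ratios, aged over young, were those of *Ppia* (cyclophilin A, which binds calcineurin as a complex with cyclosporin; log2 ratio -0.29), *Hspa5* (-0.29), *Cabin1* (an inhibitor of calcineurin; -0.28), *Calr* (the store buffer calreticulin; -0.25) and *Trpc4* (an entry channel; -0.22). The highest were *Prkci* (an atypical protein kinase C; 0.33), *Calm2* (calmodulin; 0.15), *Snap23* (a protein of membrane fusion; 0.15), *Nptn* (a partner of plasma membrane pumps; 0.14) and *Mcur1* (a regulator of the mitochondrial uniporter; 0.14). None of these 10 passed 1.3-fold. The other calcineurin genes of at least 10 CPM lay between *Ppp3cc* at -0.17 (-0.27 to -0.07) and *Ppp3r1* at 0.13, with *Akap1* at -0.07, *Nfatc2* and *Chp1* at -0.06, *Dyrk1a* at -0.02, *Nfatc2ip* at 0.03, *Rcan3* at 0.05 and *Fkbp1a* at 0.07.

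The levels of some related genes, chosen after values were seen, place the 10 among their families. *Itpr2*, a further inositol trisphosphate receptor, stood at 15.9 CPM per kb over all oocytes, above *Itpr1* (5.80), with an aged over young log2 ratio of 0.11 (0.09 to 0.14). *Stim2* stood at 7.35 CPM per kb against 0.174 for *Stim1*, and its log2 ratio, SN over NSN, was 0.18 in young and 0.48 in aged oocytes. Of the other kinase II genes, *Camk2d* reached 0.0561 CPM per kb and *Camk2b* 0.0107, against 68.2 for *Camk2g*.

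Between configurations the list had 25 of 126 genes past 1.3-fold in young oocytes (19 higher and 6 lower in SN) and 36 in aged oocytes (30 higher and 6 lower), or 19.8% and 28.6% beside 24.3% and 39.7% of all features. The store buffers and chaperones had 2 of 11 higher in young and 5 of 11 in aged SN oocytes and none lower, where 16.2% and 24.1% of all features were higher. *Hspa5* was higher in SN by a log2 ratio of 0.41 in young and 0.74 in aged oocytes, and *Nucb1*, a Golgi calcium binding protein matched by span, by 0.48 and 0.80, the latter named after its values were seen.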

How the data were processed

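Single-oocyte RNA from scM&T-seq was analysed for 87 oocytes with a predicted configuration, of 88 in the table. Reads were trimmed and aligned with HiSat2 to GRCm38 by the authors. Raw counts of primary alignments per feature of an oocyte transcriptome were deposited, without normalisation. The counting program and its strand setting are not given in the sources used here. Methylation data were not analysed here.

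The members and lists were chosen with earlier results of these data known. Genes took the feature with their name in the study's list, or the same-strand GENCODE M21 gene with an overlap, as a share of the joint span, of at least 0.3. Counts were summed per group and scaled to CPM, and ratios carry exact 95% binomial intervals conditional on the summed counts, which, like the Poisson intervals, describe counting error and neither mice nor amplification. With 1 sample a group, no test was made and a fold of 1.3 was taken as a limit of size.

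Named genes were the 10 members, the 5 highest and 5 lowest list genes by age ratio at 10 CPM or more, calcineurin genes of at least 10 CPM, and the 3 features most alike to each member with a mean count of at least 100, of which 1 is not reported here. Thinning drew 900000 counts per oocyte without replacement. Blood and immune markers summed to at most 2.42 CPM (young) and 6.80 CPM (aged). Calculations ran in Python 3.11.15 with numpy 2.4.6 and scipy 1.17.1, and TMM factors came from edgeR 4.0.16 in R 4.3.3. They were tested on simulated counts. Alternatives covered oocytes, depth, scaling, estimator, pseudocount, runs, suffix, filter and fold. Leaving out single oocytes was added after seeing the data.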

Additional observations from a re-analysis of the deposited data

How the results depend on the processing

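No value with a test was given, so an alternative could only move a value, and a log2 ratio was taken as moved when it changed by more than 0.1 and a number of genes when it changed by more than 1.5 times. Of 144 alternative values of the summaries 125 stayed, 19 moved and 0 reversed, and of 420 alternative log2 ratios of single genes 316 stayed, 104 moved and 0 reversed among those past the limit. The number of the 10 genes at least 1.3-fold lower in aged oocytes was 3 with medians over oocytes (*Ppp3ca*, *Trpm7* and *Stim1*), 2 without the young run 1 to 7 (*Ppp3ca* and *Stim1*), 3 without the aged run 41 to 48 (*Ppp3ca*, *Trpm7* and *Stim1*), 0 with suffix A alone and 0 at a limit of 1.5-fold. Within NSN oocytes it was 2 with medians and 3 with means over oocytes. Restricted to SN oocytes, the 10 genes had a median log2 ratio, aged over young, of 0.11 with 1 gene higher, and 0 were higher with medians or with means over oocytes. The number lower in SN than in NSN oocytes, *Atp2a2* in the main values, was 0 in young oocytes after thinning, with medians and with means, and 0 in aged oocytes with medians. The share of all features past 1.3-fold between ages was 2.80% at a mean count of at least 10 and 25.8% with no filter. The median log2 ratio of squared CVs was 0.68 after thinning and 0.53 with all 88 oocytes. *Ppp3ca* kept a log2 ratio, aged over young, between -0.72 (no suffix) and -0.37 (suffix A). Over the same alternatives, the single configurations included, 6 genes crossed 0, with *Stim1* from -0.68 to 0.39, *Trpm7* from -0.45 to 0.24, *Ppp3cb* from -0.07 to 0.32, *Orai1* from -0.27 to 0.09, *Atp2a2* from -0.12 to 0.23 and *Itpr1* from -0.17 to 0.16. The cause was not tested. No paired analysis was possible because oocyte numbers are not shared between the ages and no result comes from a test. Depth limited *Stim1* most, with a mean of 5.13 counts per oocyte.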

Other observations

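One aged oocyte, 48A, has no predicted configuration and entered only the values given for all 88 oocytes. The paper excluded a single oocyte as an outlier in a distance matrix, without naming it. It then classified 87 oocytes, which leaves 48A as the oocyte excluded. Its *Itpr1* (33.2 CPM), *Cacna1h* (10.9 CPM) and *Atp2a2* (119 CPM) levels lay below every young and every other aged oocyte, while the other 7 genes lay within the young range, *Trpm7* at 181 CPM and *Ppp3ca* at 15.0 CPM among them.

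Among the other oocytes, aged oocyte 31 without suffix (NSN) stood at the edge of its age group for 4 of the 10 genes. It had the highest *Atp2a2* (608 CPM, the next aged oocyte 398 CPM) and *Ppp3ca* (19.8 CPM, the next 12.4 CPM) and the lowest *Trpm7* (35.2 CPM) and *Camk2g* (341 CPM). Young oocyte 1A, the single SN oocyte of its run, had the highest *Itpr1* (146 CPM) and *Orai1* (119.7 CPM) and the lowest *Ppp3ca* (1.27 CPM, from 2 counts) of the young oocytes.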
